A study of Sus scrofa with 6 samples.

Results

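CHI3L1 and PTX3 encode secreted glycoproteins that chondrocytes and other connective tissue cells make under inflammatory stimulation. They were described in porcine cartilage through every probe set that the platform's annotation assigns to either symbol. There were 3 such probe sets, 1 for CHI3L1 (gene ID 396865) and 2 for PTX3 (gene ID 100513178), among 24123 probe sets in all. Both genes were taken up because of their values on these arrays, namely higher signals in articular than in growth plate cultures and culture differences of opposite direction. Those contrasts are therefore given as a description, with no test.

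Each of 6 conditions was measured once, as total RNA on an Affymetrix expression array, giving 6 arrays. The articular samples were native articular cartilage, the tissue of the joint surface, and its chondrocytes in culture, isolated and taken at day 10 and day 20. The growth plate samples were native growth plate cartilage, the tissue that lengthens growing bones, and cultures of its chondrocytes at the same days. Chondrocytes of both tissues were freed with collagenase and kept at 37 °C, with oxygen and carbon dioxide at 5% each, in medium with serum and antibiotics, with no other supplement, so that the low oxygen and the serum were common to all cultures. The labels give no strain, genotype, age, number of animals or pooling. Without replicates, a difference between 2 arrays has no replicate error.

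CHI3L1 is a chitinase-like protein: it keeps the fold and the sugar-binding groove of the chitinases but has lost the catalytic residue, and it binds chitin, heparin and collagen. Articular chondrocytes, synovial cells, macrophages and neutrophils secrete it, and it is a serum marker of joint disease. PTX3 is a long pentraxin, a soluble pattern recognition protein induced by interleukin 1, tumour necrosis factor and Toll-like receptor ligands in fibroblasts, endothelial cells and myeloid cells. It binds C1q and factor H of the complement system, and together with TNFAIP6 and the inter-alpha-inhibitor heavy chains it links hyaluronan into an extracellular matrix.

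Signals are in arbitrary linear units on a common scale, and a signal under 36.1, the 40th percentile of all signals, was set to that floor before ratios were taken. The 6 arrays had median signals between 59.5 and 71.5, and 5601 genes were compared. The native articular array stood apart, with a mean correlation across genes of 0.889 with the rest; for each of the remaining arrays that mean was 0.930 to 0.939. Ratios of articular cultures to native articular cartilage rest on that array, as does the ratio between the native tissues. Ratios of 2 cultures do not use it, but the limma fit to all 6 arrays does. The 6 chondrocyte markers on the array lay above the floor in all 6 samples, with summed signals of 31515 to 39900 in articular and 29764 to 37025 in growth plate samples. They included COL2A1 and ACAN, the main collagen and proteoglycan of hyaline cartilage. SOX9, the transcription factor of the chondrocyte lineage, had signals of 982, 81.0 and 76.8 in native, day 10 and day 20 articular samples and 175, 125 and 118 in growth plate samples.

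CHI3L1 had signals of 15448, 1193 and 1395 in native, day 10 and day 20 articular samples. In the growth plate samples of the same stages it had 2984, 81.6 and 89.3. The 3 articular signals thus each exceeded the growth plate signal of their stage, and in each tissue both cultures lay far under the native sample. All 6 signals lay above the floor, so every CHI3L1 ratio was measured on both sides. In order of level, native articular cartilage came first, then native growth plate cartilage, the articular cultures at day 20 and day 10, and the growth plate cultures at day 20 and day 10. The lowest articular value, at day 10 of culture, was below that of native growth plate cartilage, so the tissues overlapped when stages were ignored. The 2 culture days of a tissue stood next to each other in that order and differed by 1.17-fold in articular and 1.09-fold in growth plate cultures.

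PTX3 had signals of 52.1, 666 and 2766 in native, day 10 and day 20 articular samples on its brighter probe set of 2. In the growth plate samples of the same stages it had 29.6, 80.2 and 162. Native growth plate cartilage lay under the floor and native articular cartilage just above it, and all 4 cultures lay above it. The order was articular day 20, articular day 10, growth plate day 20, growth plate day 10, native articular and native growth plate cartilage. The native samples, which were the highest of their tissue for CHI3L1, were thus the lowest of their tissue for PTX3. Over the 6 arrays the log2 signals of the genes had a Pearson's r of -0.099 and a Spearman's rho of -0.371, given as a description over samples that share tissue and stage.

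**Figure D1:**
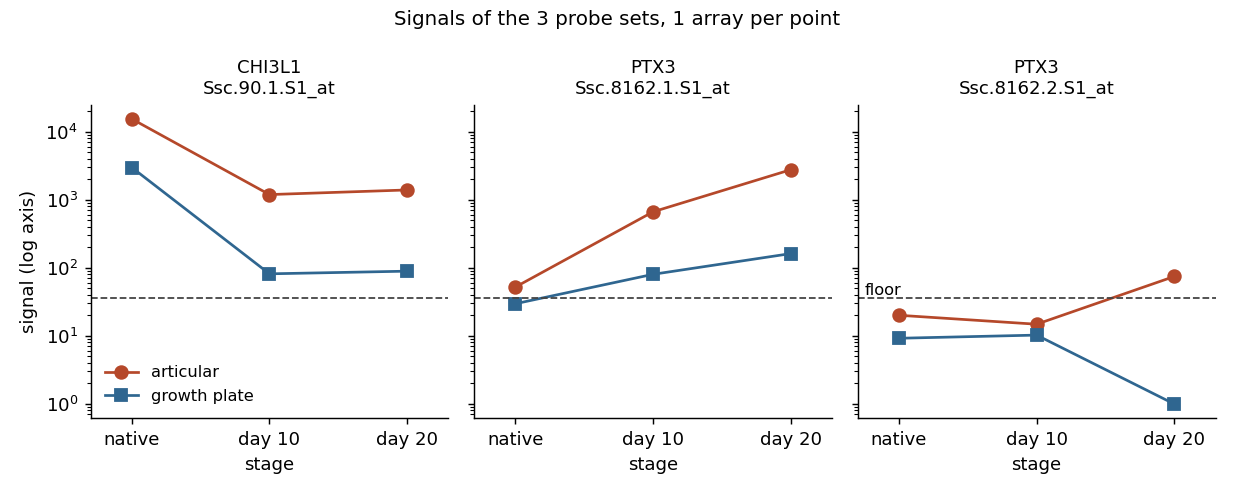
Signal of each probe set (log axis, arbitrary units) by stage in articular samples (circles) and growth plate samples (squares), 1 array per point, with lines joining the stages of a tissue and the floor of 36.1 dashed. CHI3L1 was lower in all 4 cultures than in native tissue, the brighter PTX3 probe set was higher in all 4, and articular symbols lay above growth plate symbols at every stage of these 2 probe sets.

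The second PTX3 probe set was dim. It had signals of 20.1, 14.8 and 74.5 in native, day 10 and day 20 articular samples and 9.21, 10.2 and 0.994 in growth plate samples. Only the day 20 articular culture lay above the floor, which is also the sample with the highest signal on the brighter probe set. The dim probe set put PTX3 at least 2.06-fold higher in articular than in growth plate cultures at day 20, and gave no ratio at day 10 or in native tissue, where both samples were under the floor. PTX3 values at those stages therefore rest on 1 probe set, and CHI3L1 has only 1. The brighter probe set is used below.

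Between the tissues in culture, CHI3L1 was 14.6-fold higher in articular than in growth plate chondrocytes at day 10 and 15.6-fold higher at day 20. PTX3 was 8.30-fold higher in articular cultures at day 10 and 17.1-fold higher at day 20. At day 10, 0.5% of all genes were at least 4-fold higher in articular cultures, and at day 20 0.75% were. Ranked by this ratio among 5601 genes, CHI3L1 stood at position 2 on both days, and PTX3 at position 6 at day 10 and position 1 at day 20. The genes were chosen on this difference, so nothing further is read from the ranks. The CHI3L1 ratio was nearly the same at both days, while the PTX3 ratio at day 20 was 2.06 times that at day 10.

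In native tissue the genes parted. CHI3L1 was 5.18-fold higher in native articular than in native growth plate cartilage, position 41 among 5601 genes, where 1.21% of genes were at least 4-fold higher. PTX3 was at least 1.44-fold higher, a bound set by the floor, with both signals near or under it. The articular excess of PTX3 was therefore seen in cultured cells but was hardly measurable in the tissues they came from, whereas that of CHI3L1 was measured in both. The native articular array that enters this comparison is the one that stood apart.

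Relative to native tissue, CHI3L1 was 12.9-fold lower at day 10 and 11.1-fold lower at day 20 in articular cultures. In growth plate cultures it was 36.6-fold lower at day 10 and 33.4-fold lower at day 20. At least 4-fold lower were 1.75% and 1.79% of all genes at day 10 and day 20 in articular cultures, and 0.982% and 0.661% in growth plate cultures. Among 5601 genes the growth plate ratio of CHI3L1 was the lowest at both days. The growth plate difference exceeded the articular one by a factor of 2.83 at day 10 and 3.02 at day 20. This gap between the tissues had no replicate check, because in an additive model it is itself the residual.

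PTX3 was 12.8-fold higher at day 10 and 53.0-fold higher at day 20 in articular cultures than in native articular cartilage. In growth plate cultures it was at least 2.22-fold higher at day 10 and at least 4.48-fold higher at day 20 than in native growth plate cartilage. At least 4-fold higher were 4.46% and 4.37% of all genes at day 10 and day 20 among articular chondrocytes, against 0.428% and 0.964% in those of growth plate. PTX3 passed the size of 4-fold in 3 of these 4 pairs, and stood at position 27 and position 8 among 5601 genes in the articular pairs. The culture differences of the genes thus had opposite directions in both tissues.

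**Figure D2:**
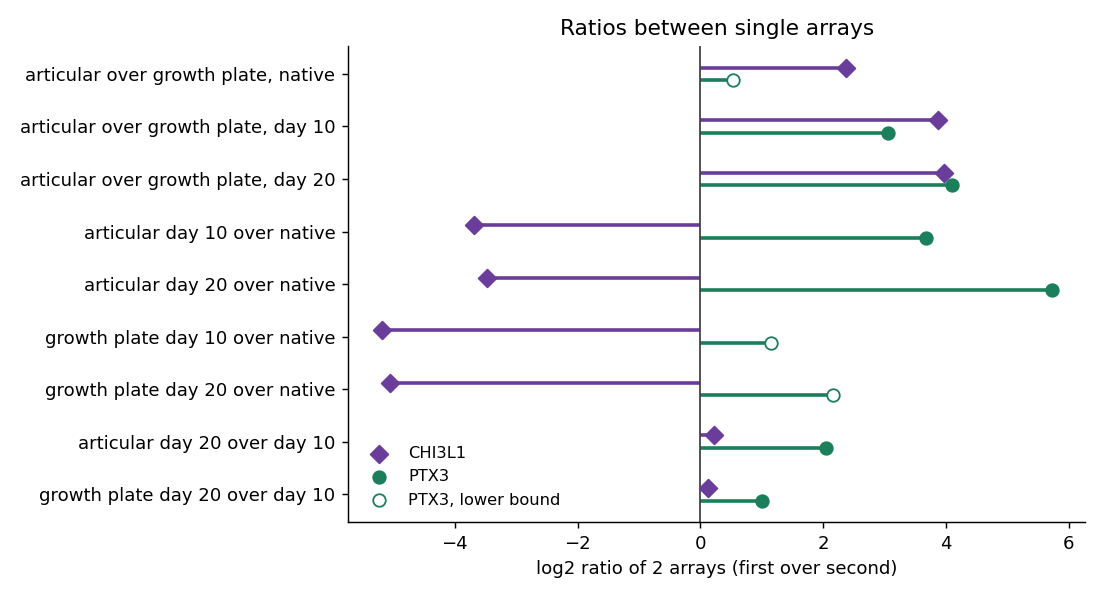
Log2 ratios of CHI3L1 (diamonds) and PTX3 (circles) between pairs of single arrays, named down the axis with the numerator first. Open symbols are lower bounds, where the denominator lay under the floor; CHI3L1 was to the left of 0 in all 4 culture over native pairs and PTX3 to the right, while both were to the right in the articular over growth plate pairs.

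The difference between the culture days was not part of the rule that chose the genes, and it was tested. The rule did use the same cultured arrays, and earlier results of these data were known, so the test is not independent of the choice. PTX3 was 4.15-fold higher at day 20 than at day 10 in articular cultures and 2.02-fold higher in growth plate cultures, higher in 2 of 2 pairs. In the limma fit to all 6 arrays its log2 difference between day 20 and day 10 was 1.53 ± 0.83 (SE), with a Benjamini-Hochberg adjusted p of 0.450, which did not pass. The difference corresponds to 2.89-fold, and its 95% interval ran from a log2 of -0.52 to 3.59. For CHI3L1 the difference was 0.18 ± 0.44 (log2, SE), a limma adjusted p of 0.895. Its 95% interval, from -0.91 to 1.27, does not exclude a difference of 2-fold upwards. In that fit 0 of 5601 genes were called higher or lower at an adjusted p under 0.05 and at least 2-fold (0%), whereas 820 had a p under 0.05 before adjustment.

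The PTX3 result depended on the arrays in the fit. When limma was run on the 4 culture arrays by themselves, the same log2 difference of 1.53 had an SE of 0.30 and an adjusted p of 0.00448. That fit called 4.7% of 5473 genes higher and 4.6% lower at day 20, and it rested on 1 residual degree of freedom plus 11.9 from the prior. CHI3L1 was not called there, at 0.18 ± 0.27 and a limma adjusted p of 0.717. Without the native articular array the adjusted p of PTX3 was 0.00789, and without the native growth plate array it was 0.00921. Both of these fits draw the day difference from the same 4 cultured arrays and are no separate check. No condition was replicated, so the residual of each fit is the difference between the tissues in their stage changes. For PTX3 the log2 day difference was 1.04 larger in articular than in growth plate cultures. The SE of 0.30 leans mostly on the prior, which is drawn from other genes. These limma p-values thus measure no error between animals or between replicate cultures.

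Genes that combined the tissue difference in culture with a culture difference were counted. CHI3L1 and PTX3 were chosen for such a combination, so that their own place among these genes is a description and no result. At both culture days 68 genes, 1.21% of 5601, were at least 2-fold higher in articular than in growth plate cultures. Of the 68, 4 were also at least 2-fold lower in culture than in native tissue in all 4 pairs, as 0.696% of all genes were. They were CHI3L1, GEM, CCL2 and CXCL2. PTX3 was the single gene of the 68 that was at least 2-fold higher in culture in all 4 pairs, the size rule being met through a bound in growth plate, where again 0.696% of all genes met that rule. CCL2, a chemokine that attracts monocytes, had signals of 2855, 876 and 1419 in native, day 10 and day 20 articular samples and 1750, 78.8 and 375 in growth plate samples. CCL2 differed from CHI3L1 in native tissue, where it was 1.63-fold higher in articular cartilage. CXCL2, a chemokine that attracts neutrophils, had signals of 4133, 96.5 and 177 in articular samples and 207, 34.2 and 24.3 in growth plate samples, with both growth plate cultures under the floor.

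**Figure D3:**
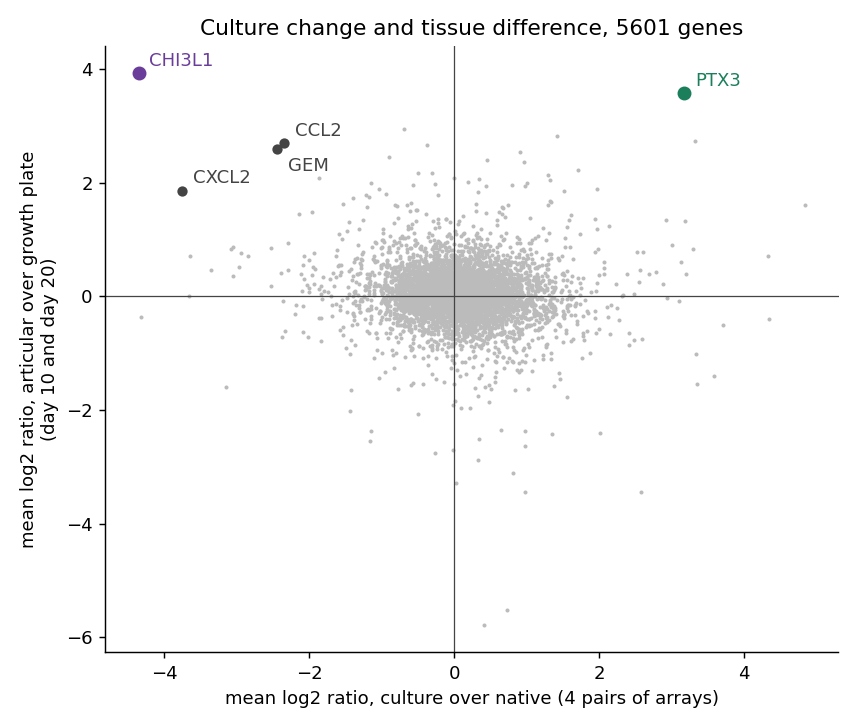
Each point is a gene: the mean log2 ratio of culture over native tissue in 4 pairs of arrays (horizontal) against the mean log2 ratio of articular over growth plate at day 10 and day 20 (vertical), for 5601 genes. CHI3L1 lay at the upper left with GEM, CCL2 and CXCL2 on the same side, and PTX3 at the upper right.

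The genes whose log2 signal was most like each of the pair over the 6 arrays were taken among the 878 other genes that spanned at least 4-fold. For CHI3L1 they were GEM (Pearson's r 0.985), TSHZ2 (0.969), TNFRSF21 (0.962), BSCL2 (0.955) and CNRIP1 (0.952). GEM, a small GTPase of the cytoskeleton and of calcium channels, had signals of 6431, 1366 and 1279 in native, day 10 and day 20 articular samples and 1333, 238 and 204 in growth plate samples. TNFRSF21, a death receptor, had 1320, 520 and 435 in articular samples and 913, 268 and 271 in growth plate samples. The growth plate cultures were the lowest samples of both, as for CHI3L1, but the span of CHI3L1 was wider. Of BSCL2, whose product seipin shapes lipid droplets, 3 probe sets exist, and the other 2 were not of this pattern.

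For PTX3 the most alike genes were NANOS1 (r 0.971), SST (0.954), C1QTNF2 (0.941), TPCN2 (0.935) and RGS4 (0.932). C1QTNF2, a secreted protein with a C1q-like domain, had signals of 182, 824 and 934 in native, day 10 and day 20 articular samples and 165, 236 and 193 in growth plate samples. SST, the hormone somatostatin, had 12.3, 98.3 and 212 in articular samples and 9.99, 5.93 and 8.10 in growth plate samples, so that only the articular cultures lay above the floor. RGS4, which shortens G protein signalling, had 22.5, 134 and 247 in articular samples and 2.58, 25.9 and 126 in growth plate samples. TPCN2, a channel of lysosomes, had 369, 1454 and 1993 in articular samples and 595, 719 and 867 in growth plate samples, and its dimmer probe set differed less between the cultures. NANOS1, an RNA-binding protein of germ cells, had 35.0, 130 and 210 in articular samples and 37.6, 71.2 and 71.5 in growth plate samples, but its dimmer probe set did not follow PTX3. That probe set lay above the floor in native and day 20 articular samples, at 47.2 and 54.7, and under it in day 10 articular cultures and all growth plate samples. Such likeness was not confined to the genes named: 20 of the 878 genes, or 2.28%, reached an r of 0.9 with CHI3L1, and 15, or 1.71%, did with PTX3. The 6 arrays share tissue and stage, and how many genes would reach this r by chance was not tested.

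**Figure D4:**
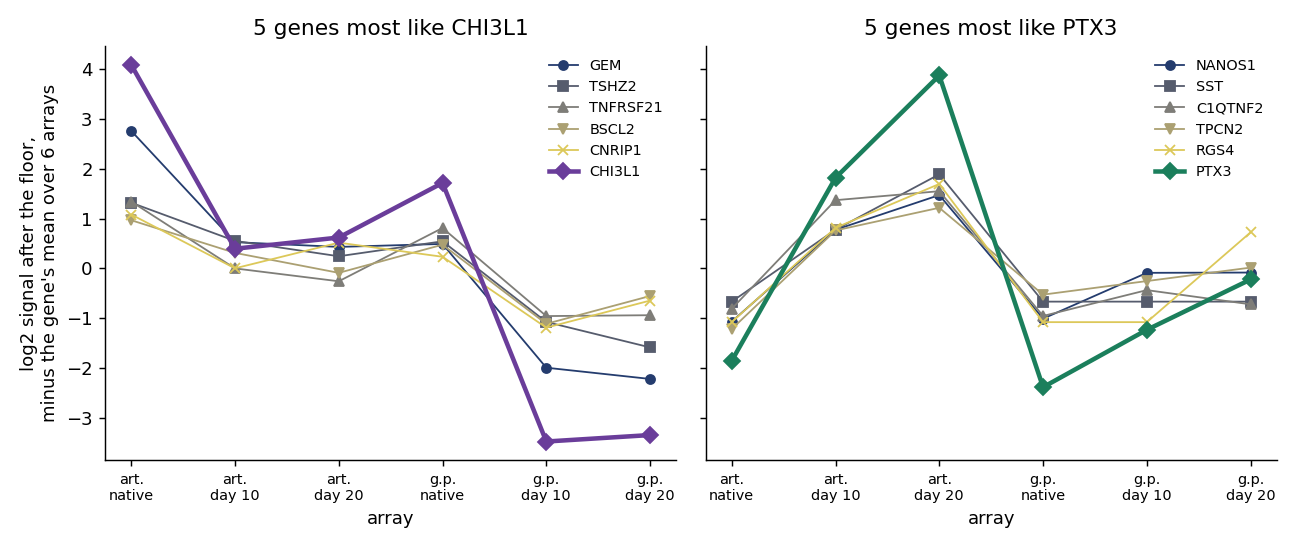
Log2 signal after the floor minus the gene's mean over the 6 arrays, for CHI3L1 and PTX3 (thick lines) and the 5 genes most like each, with articular arrays (art.) left of growth plate arrays (g.p.). The alike genes ran a similar course over the arrays, with a smaller span than CHI3L1 or PTX3.

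The relatives and partners of CHI3L1 differed less than CHI3L1 itself, and some of them in the same direction. Of 6 chitinase-like genes listed, 3 were on the array, and CHID1 alone passed the filter on low signals. CHID1, a chitinase-like protein of the lysosome and the secretory path, had signals of 1730, 1716 and 2205 in native, day 10 and day 20 articular samples and 1305, 2096 and 1971 in growth plate samples, so that the tissues overlapped. CHIA, an acidic chitinase of stomach and lung, and OVGP1, a glycoprotein of the oviduct, were under the floor on all arrays. Of 10 genes listed from general knowledge as receptors and binding partners, 7 were on the array and 6 passed the filter. Whether each of them binds CHI3L1 was not examined. None of the 6 was at least 2-fold higher or lower in articular cultures at both days, where 1.21% and 0.893% of all genes were, and none was called by limma in any of the 3 contrasts. Over all 5601 genes limma called 3, 0 and 0 for tissue, culture and day, so that a count of 0 is near the background. At an unadjusted level these contrasts had 597, 1089 and 820 of 5601 genes with a limma p under 0.05. The median log2 ratio of articular over growth plate cultures was 0.18 over these 6 genes and 0.04 over all genes.

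LGALS3, a galactose-binding lectin reported to bind CHI3L1, had signals of 3254, 3417 and 3026 in native, day 10 and day 20 articular samples and 2219, 1927 and 1932 in growth plate samples. Every articular signal of LGALS3 exceeded every growth plate signal, at ratios between 1.47 and 1.77. TMEM219, a co-receptor for CHI3L1, had 604, 399.6 and 400.0 in articular samples and 346, 319 and 508 in growth plate samples, with overlap. IL4R, the interleukin 4 receptor chain that pairs with IL13RA1, had 930, 297 and 392 in articular samples and 510, 179 and 289 in growth plate samples. SDC4, a heparan sulphate proteoglycan of the cell surface, had 575, 174 and 181 in articular samples and 285, 172 and 201 in growth plate samples. IL4R was higher in the articular sample at all 3 stages and lower in the cultures than in native tissue in 4 of 4 pairs, the directions of CHI3L1 at smaller sizes. SDC4 was also lower in culture in 4 of 4 pairs, by less than CHI3L1, but the tissues differed little in culture. SDC1 ranged from 401 to 772 in articular and from 344 to 698 in growth plate samples, and IL13RA1 from 51.6 to 71.3 and from 42.8 to 120. AGER, the receptor for advanced glycation end products, was above the floor on 1 array only.

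The other pentraxins were at background. CRP and APCS, the short pentraxins that the liver makes, were the measured 2 of 6 listed family members, and neither passed the filter. CRP was under the floor on all arrays, and APCS had a signal of 39.8 in day 10 articular cultures and was under the floor elsewhere. Of 22 genes for PTX3 ligands and the hyaluronan matrix, 18 were on the array and 7 passed the filter. TNFAIP6, the partner of PTX3 in hyaluronan cross-linking, and the inter-alpha-inhibitor heavy chain genes ITIH1 to ITIH4 did not pass it, and TNFAIP6 had signals of 4.24 to 19.5 in articular and 17.7 to 29.3 in growth plate samples. None of the 7 was at least 2-fold apart between the cultures at both days, where 1.21% of all genes were higher and 0.893% lower, so that a count of 0 is near the background. VCAN, the large hyaluronan-binding proteoglycan versican, came closest to PTX3, with signals of 92.0, 457 and 2489 in native, day 10 and day 20 articular samples and 84.8, 136 and 1312 in growth plate samples. VCAN was 3.37-fold higher in articular cultures at day 10 and 1.90-fold higher at day 20, so that its tissue ratio was smaller at day 20 while that of PTX3 was larger. At day 20 over day 10, 2 of the 7 genes, VCAN and FGF2, were at least 2-fold higher in both tissues, as 2.46% of all genes were. FGF2, a growth factor that PTX3 binds, was named after its values were seen, and its articular day 10 and growth plate day 10 signals lay under the floor. FGFR1, a receptor for FGF2, had 1881, 731 and 829 in articular samples and 922, 666 and 383 in growth plate samples.

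Genes that the same cytokines induce were examined because both CHI3L1 and PTX3 are among their targets. Of 33 cytokine-induced secreted or surface proteins listed, 26 were on the array and 20 passed the filter. In articular cultures 4 of the 20 were at least 2-fold higher at both days, namely CCL2, CXCL2, PLAU and VCAM1, and 1, MMP13, was at least 2-fold lower, as 1.21% and 0.893% of all genes were. PLAU, the urokinase protease, had signals of 7595, 4205 and 4093 in native, day 10 and day 20 articular samples and 1284, 979 and 1172 in growth plate samples, so that it kept the tissue difference with little culture difference. VCAM1, an adhesion molecule for leukocytes named after its values were seen, had 699.8, 399 and 872 in articular samples and 749, 107 and 288 in growth plate samples. MMP13, a collagenase of mineralising cartilage, had 39.8, 27.0 and 30.5 in articular samples and 91.2, 299.7 and 513 in growth plate samples. The median log2 ratio of articular over growth plate cultures was 0.37 over the 20 genes, against 0.04 over all genes.

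Relative to native tissue, 5 of these 20 genes were at least 2-fold lower in all 4 pairs, as CHI3L1 was, and none was higher in all 4, as PTX3 was. Of all genes, 0.696% met each of these rules. The 5 were CCL2, CXCL2, CXCL8, CCL4 and SOD2, the last 2 named after their values were seen. CXCL8, a neutrophil chemokine, had signals of 3084, 34.8 and 91.2 in native, day 10 and day 20 articular samples and 550, 49.8 and 109 in growth plate samples. It shared the low culture signals of CHI3L1 but was not higher in articular cultures. The median log2 ratio of culture over native tissue was -1.04 over the 20 genes and 0.06 over all genes. PTX3 lay on the opposite side from the median of the cytokine-induced list. It was chosen for the direction of its culture difference, so that its side is a description and no result. limma called none of the 20 in the contrasts of tissue, culture or day, and it called 0.0179% of all genes higher and 0.0357% lower in articular samples, and 0% in each direction between culture and native tissue.

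Among cytokine receptors and the NF-kappa B pathway, 11 of 27 listed genes passed the filter. TLR2, a receptor for bacterial lipoproteins, was the single one at least 2-fold higher in articular cultures at both days, as 1.21% of all genes were. It had signals of 190, 216 and 162 in native, day 10 and day 20 articular samples and 131, 77.5 and 55.4 in growth plate samples. NFKBIA, the inhibitor and target of NF-kappa B, had 10273, 595 and 797 in articular samples and 1849, 383 and 387 in growth plate samples. TNFRSF1B, a tumour necrosis factor receptor, had 1895, 117 and 136 in articular samples and 292, 64.0 and 87.1 in growth plate samples. NFKBIA and TNFRSF1B were the 2 genes of the list that were at least 2-fold lower in culture in all 4 pairs, as 0.696% of all genes were. The median log2 ratio of articular over growth plate cultures was 0.54 over the 11 genes and 0.04 over all genes.

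**Figure D5:**
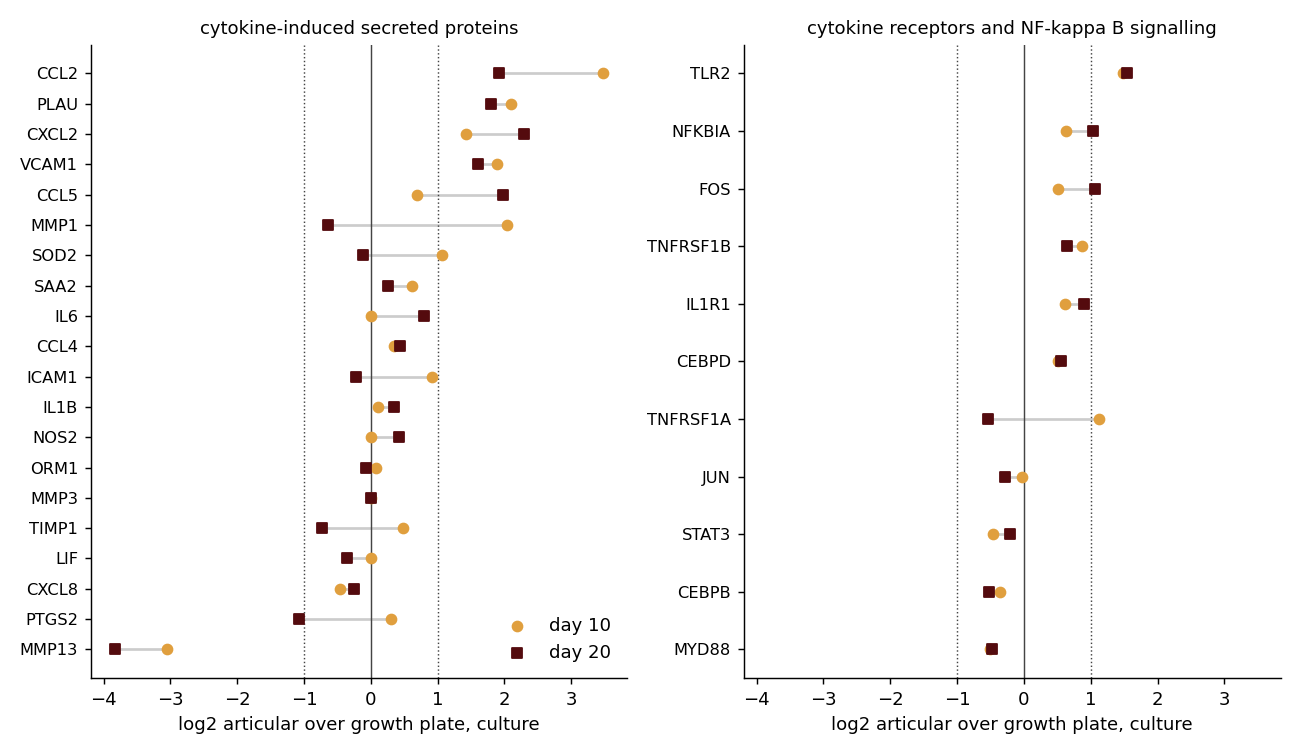
Log2 ratio of articular over growth plate cultures at day 10 (circles) and day 20 (squares) for the 20 cytokine-induced genes (left) and 11 receptor and NF-kappa B genes (right) that passed the filter, with dotted lines at 2-fold. CCL2, PLAU, CXCL2 and VCAM1 on the left and TLR2 on the right lay beyond 2-fold on the articular side at both days, and MMP13 on the growth plate side.

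Other cell types that secrete these proteins were looked for by their markers. Of 12 macrophage and monocyte markers 9 were on the array, and 2 of them lay above the floor on any array, with a highest signal of 43.8. Their summed signal was 84.3 to 113 in articular and 119 to 182 in growth plate samples. CD163 and PTPRC were under the floor on all arrays, and CD14 was above it in growth plate cultures at day 10 only. Of 9 neutrophil markers 5 were on the array, and their summed signal was 133, 31.9 and 54.9 in native, day 10 and day 20 articular samples and 66.9, 74.4 and 68.2 in growth plate samples. The sum was thus highest in native articular cartilage, the sample with the highest CHI3L1. It adds signals under the floor, as the macrophage sum does, and is near background. Of the 5 neutrophil markers 1 passed the filter on low signals, and of the 9 macrophage and monocyte markers 0 did. S100A9 and S100A12, which neutrophils hold in their cytosol, had their highest signals in native articular cartilage, 49.4 and 45.3, just above the floor. Both were under it in both articular cultures, and S100A9 was at the floor, with 36.2, in day 20 growth plate cultures. S100A8 was under the floor on all arrays. The part of these markers in the CHI3L1 values was not tested. Of 8 endothelial markers 7 were on the array and 3 passed the filter. PECAM1, an endothelial adhesion molecule, had signals of 277, 118 and 65.6 in native, day 10 and day 20 articular samples and 67.2, 52.9 and 52.6 in growth plate samples. Its dimmer probe set had 19.7 and 21.5 in day 10 and day 20 articular cultures, under the floor, and 39.9 and 45.2 in growth plate cultures. ESAM had 74.5, 82.9 and 127 in articular samples and 89.3, 206 and 106 in growth plate samples. CLDN5 had 39.8, 26.9 and 99.5 in articular samples and 29.1, 3.87 and 94.2 in growth plate samples. CDH5, VWF, KDR and TEK were under the floor throughout.

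All 10 fibroblast and synovial lining markers on the array, of 12 listed, passed the filter. Their summed signal was 12479, 21200 and 29232 in native, day 10 and day 20 articular samples and 23144, 13802 and 37817 in growth plate samples. The sum was highest at day 20 in each tissue, as PTX3 was. It was higher in articular than in growth plate cultures at day 10, as PTX3 was, and lower at day 20, unlike PTX3. Such a sum is carried by its brightest probe sets. LUM, a small proteoglycan of fibrous matrix, had 15.5, 1498 and 2784 in articular samples and 956, 780 and 10749 in growth plate samples. PDGFRB, a receptor of mesenchymal cells, was the single one of the 10 at least 2-fold higher in articular cultures at both days, as 1.21% of all genes were. It was 2.75-fold higher there at day 10 and 2.25-fold higher at day 20. Its dimmer probe set went the other way, at 37.9 against 95.2 in growth plate cultures at day 10 and 49.8 against 59.7 at day 20. In articular cultures at day 20 COL1A2 was 2.80-fold lower and PDPN 4.80-fold higher. The part of these markers in the PTX3 values was not tested, and in RNA from whole samples fewer cells of a type and less RNA per cell cannot be told apart. Of 8 osteoblast markers 7 were on the array and 5 passed the filter. They summed to 11118 to 19442 in articular and 26389 to 31976 in growth plate samples, the opposite order to CHI3L1 and PTX3 in culture. SPP1, IBSP and ALPL carried the sum in growth plate samples. In articular samples SPP1 alone carried it in native tissue and at day 10, and SPP1 and IBSP did at day 20. SPP1 by itself was higher in native articular than in native growth plate cartilage, at 19241 against 14127. SP7 and PHEX did not pass the filter. At both days 2 of the 5 were at least 2-fold lower in articular cultures, as 0.893% of all genes were. BGLAP went the other way at day 10, with 64.6 in articular and 27.1 in growth plate cultures.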

How the data were processed

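The values are linear signal intensity per probe set as deposited by the authors, which GCOS 1.4 produced, per the submitters' processing notes, from biotinylated cRNA of 100 ng of total RNA per sample. The scaling target and other settings are not given in the sources used here. The mean signal without the top and bottom 2% of probe sets was equal on all arrays to within a factor of 1.00005, and the intensities were therefore taken as globally scaled and were not normalized again. The number of arrays limits the precision.

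The 124 control probe sets were left out. Signals under the 40th percentile of the other 23999 (36.1) were set to that floor before log2. The platform annotation gave 10069 probe sets 1 gene symbol, 198 several and 13732 none; 9961 of the first had a current gene ID. Each of 6765 genes was represented by its probe set of highest mean log2 signal, and 5601 genes above the floor on at least 2 arrays were kept. Signals of different probe sets are not comparable as levels.

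An additive model of tissue and stage was fitted to the 6 arrays in limma, version 3.58.1, with an intensity trend (R 4.3.3; the package data.table, version 1.17.8, read the files). It rested on 2 residual degrees of freedom plus 3.74 from the prior. Calls needed a Benjamini-Hochberg adjusted p under 0.05 and at least 2-fold. The fit was tested on simulated data. Those data had independent noise and no tissue-by-stage difference, which is the residual of the fit here, so they do not check the p-values on that point. Ratios of single arrays had no test; a bound is written "at least". Fits that leave out arrays kept genes above the floor on at least 2 of the arrays fitted, a choice made after genes at the floor on all of them were seen to have no variance.

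The 13 gene lists were written from general knowledge. The genes described and the lists were chosen with earlier results of these data known. All measured members of the 3 lists on relatives and receptors were named. Of each other list the named genes were up to 4 with the largest mean absolute ratio between the cultures and up to 2 with the largest culture difference, and for CHI3L1 and PTX3 the 5 most alike genes. The named genes of the chondrocyte and osteoblast lists are given only where they bear on CHI3L1 or PTX3. HMMR, HYAL2, TNFRSF1A and FOS also met the rule, and their values are not given. Alternatives were quantile normalization, median centring, floors at the 25th and 60th percentile, a pseudocount of 16, other filters, averaged probe sets, no trend, other size rules, and fits without each array.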

Additional observations from a re-analysis of the deposited data

How the results depend on the processing

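No paired analysis was possible because the labels number no replicates and each condition has 1 array. Of 143 ratios of CHI3L1 and PTX3 recomputed under other settings, 113 moved by less than 1.5-fold, 30 moved by more and none turned round. Some of the 113 could not move. CHI3L1 has a single probe set, so averaging probe sets left its ratios as they were. All its signals lay above the floor used, so the lower floor at the 25th percentile left them unchanged too. A ratio that fell to 0, as several of PTX3 did on the dim probe set, did not count as turned round. A floor at the 60th percentile, a signal of 136 that lies above several of the values compared, lowered the log2 ratio of articular over growth plate cultures to 3.13 at day 10 and 3.36 at day 20 for CHI3L1 and to 2.29 at day 10 for PTX3. With that floor the mean log2 ratio of culture over native tissue was -4.46 for CHI3L1 in growth plate, and for PTX3 3.32 in articular and 0.13 in growth plate samples. With the mean of both probe sets PTX3 had tissue ratios of 1.53 at day 10 and 2.57 at day 20 and culture ratios of 2.61 in articular and 0.83 in growth plate samples; on the dim probe set alone these were 0, 1.05, 0.52 and 0.

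The limma difference between day 20 and day 10 ranged over the fits without each array from -0.24 to 0.60 for CHI3L1 (adjusted p 0.656 to 0.997) and from 0.38 to 2.69 for PTX3 (adjusted p 0.00789 to 0.997). For CHI3L1 it turned to -0.24 without the articular day 20 array and to -0.17 without the growth plate day 10 array. PTX3 passed the threshold without either native array and with the 4 cultured arrays alone (1.53, adjusted p 0.00448). PTX3 gave no value under the filter on all 6 arrays, which it does not pass. Without 1 array the genes called numbered 2 to 141 for tissue, 7 to 1168 for culture and 0 to 506 for day. Without the native articular array they were 141, 212 and 506, and without the native growth plate array 131, 1168 and 497. Without articular day 10 they were 3, 7 and 0, without articular day 20 23, 18 and 3, without growth plate day 10 2, 21 and 0, and without growth plate day 20 27, 93 and 1. With the 4 cultured arrays 151 were called for tissue and 509 for day. For tissue, 3 genes in the fit reported, the calls were 6 with quantile normalization, 8 with median centring, 5 and 6 with floors at the 25th and 60th percentile, 6 with the pseudocount, 0 with no filter, 0 with the filter on all 6 arrays, 1 with the mean of probe sets and 1 with no trend. For culture, 0 in the fit reported, they were 9 with median centring, 5 with the 60th percentile floor, 4 with the pseudocount and 3 with the filter on all 6 arrays.

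At least 4-fold apart either way were 261, 63 and 64 genes between articular and growth plate samples in native tissue, at day 10 and at day 20; 348 and 345 between articular cultures and native tissue at day 10 and day 20; 79 and 91 likewise in growth plate; and 83 and 131 between day 20 and day 10 in articular and growth plate cultures. In the same order a 2-fold rule gave 1165, 410, 387, 1437, 1332, 800, 576, 636 and 766, an 8-fold rule 68, 18, 19, 97, 119, 12, 31, 12 and 31, and the 60th percentile floor 153, 38, 30, 187, 199, 39, 55, 47 and 67. The 25th percentile floor gave 95 at day 10 between tissues, 151 for growth plate day 20 against native tissue and 130 between the articular culture days. The filter on all 6 arrays gave 39 and 31 between the cultures at day 10 and day 20, 56 for growth plate day 20 against native tissue, and 50 and 79 between the days in articular and growth plate cultures. Genes at least 2-fold lower in articular cultures at both days numbered 50, against 29 with the 60th percentile floor and 30 with the filter on all 6 arrays. Genes at least 2-fold higher in culture in all 4 pairs numbered 39, against 20 and 24. Signal close to the floor limits the native PTX3 values and both growth plate PTX3 ratios to native tissue.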

Other observations

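Complement genes, whose products PTX3 binds or meets in tissue, were measured beside it. Of 22 listed, 17 were on the array and 10 passed the filter on low signals. C1R and C1S, the proteases of the first complement component, were lowest at day 10 in both tissues. C1S had signals of 1931, 696 and 2425 in native, day 10 and day 20 articular samples and 2886, 246 and 2321 in growth plate samples, and C1R had 1048, 392 and 982 in articular samples and 1561, 177 and 1091 in growth plate samples. Between day 20 and day 10, 3 of the 10 genes were at least 2-fold higher in both tissues, C1R, C1S and SERPING1 (the last named after its values were seen), as PTX3 was and as 2.46% of all genes were. C5, the precursor of a chemotactic fragment, was the single one at least 2-fold higher in articular cultures at both days, as 1.21% of all genes were. It had 101, 131 and 95.8 in articular samples and 91.3, 31.3 and 2.35 in growth plate samples, where both cultures lay under the floor. CD55, which shields cells from complement, had 39.6, 110 and 39.6 in articular samples and 191, 135 and 101 in growth plate samples. The genes for C1q itself that were on the array, C1QA and C1QC, did not pass the filter. None of the 10 was called by limma in the contrast of day, where 0 of 5601 genes were called.

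The nearest genes that passed the filter on low signals on either side of CHI3L1 in the Sscrofa11.1 annotation, read only for gene order and chosen after the values were seen, were TMEM183A and PRRC2C. TMEM183A had signals of 2056, 1713 and 1050 in native, day 10 and day 20 articular samples and 1350, 1772 and 991 in growth plate samples. PRRC2C had 257, 163 and 228 in articular samples and 274, 149 and 260 in growth plate samples. Beside PTX3 the nearest were SSR3 and MLF1. SSR3 had 5258, 4281 and 4217 in articular samples, with 5577, 4743 and 4825 in growth plate. MLF1 had 255, 133 and 96.7 in articular samples, with 55.5, 109 and 66.6 in growth plate. None of these 4 neighbours was at least 2-fold apart between the cultures on either day. Of 5601 genes, 410 were so at day 10 and 387 at day 20, so that a count of 0 is near the background. In native tissue MLF1 was higher in articular cartilage, at 255 against 55.5.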
